A study of Mus musculus with 9 samples.

Results

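Costimulatory receptors deliver the signal that a T-cell needs in addition to its antigen receptor. The receptors named for this description were Cd28, Icos, Cd2, Cd5, Cd27 and Cd226, 6 genes listed by name. A probe was matched to 5 of these 6 genes, out of 785 features on the panel. No probe matched Cd2, which was therefore not analysed here. The bone marrow of 9 wild-type C57BL/6 mice, female and unirradiated, 6 to 8 weeks old at the start, was harvested at day 7, and its T-cells were enriched with a kit for all T-cells. Of these mice, 3 had no leukemia, 3 had leukemia and received vehicle, and 3 had leukemia and received rIL-12. Below, with vehicle and with rIL-12 name these 2 groups with leukemia. No group had rIL-12 without leukemia, and the labels list the mice without leukemia as having had no treatment. Against those mice, differences due to leukemia and to what was injected therefore cannot be told apart. Leukemia was B-cell acute lymphoblastic leukemia (B-ALL), started by tail vein injection of 200000 cells of a single luciferase-expressing BCR-ABL1+ Arf-/- mouse line. For the expression experiment the study states that these cells also carried GFP. The results are for 1 line in young female hosts. Recombinant mouse IL-12 p70 (rIL-12) was given into the peritoneum at 1 µg per dose on 5 consecutive days from day 3. The study calls the leukemia group without rIL-12 vehicle treated, whereas the labels list those mice as having had no treatment.

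CD28 and ICOS belong to the same receptor family and signal through phosphoinositide 3-kinase, CD28 after binding CD80 or CD86 on an antigen presenting cell and ICOS after binding ICOS ligand. CD27 is a TNF receptor family member that binds CD70, CD226 binds CD155 and CD112, and CD5 is a scavenger receptor family protein that also dampens the signal of the antigen receptor. CTLA-4 competes with CD28, and TIGIT with CD226, for the same ligands. CD27 and CD226 are also made by NK cells, and CD5 by some B-cells.

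The nCounter Mouse Immune Exhaustion panel was used, which counts color-coded probes hybridized to single RNA molecules without amplification. Total counts were between 257613 and 711748 per mouse. A probe for a viral gene, which has no target in the mouse genome, gave 53 to 114 counts and serves here as the measure of background. It is a single probe, and 252 features, it included, had a mean count at or below its mean, so other probes can read lower. Counts of Cd28 (234 to 808), Icos (141 to 358), Cd5 (106 to 310) and Cd226 (106 to 554) were above the viral probe in all 9 mice, by at least 2.44, 1.46, 1.61 and 1.61 times. Counts of Cd27 (57 to 122) were below the viral probe in 6 of 9 mice, so a change in Cd27 lies near the level of that probe. All levels below are normalized counts, which are raw counts scaled between mice with TMM, and each comes from a different probe, so levels of different genes are not compared with each other.

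Against mice without leukemia, 1 of the 5 measured receptors was called lower with vehicle (Cd226) and 3 with rIL-12 (Cd226, Cd5 and Cd28). None was higher in either comparison, and none passed the threshold between the 2 groups with leukemia with edgeR, where 1 (Cd28) had an unadjusted p under 0.05 and was called lower by DESeq2. The threshold was an edgeR adjusted p under 0.05 over all 785 features together with a change of at least 1.5-fold. With the counts scaled instead to the CD3 chains, none of these receptors was called lower. Over the whole panel, 1.40% of features were called lower with vehicle and 8.66% with rIL-12, which sets the scale for 1 of 5 and 3 of 5. Values of the compared mice were fully apart for 2 of 5 receptors with vehicle, for 4 of 5 with rIL-12 and for 1 of 5 between the 2 groups with leukemia, where 22.5%, 35.5% and 30.7% of all features did not overlap. The median log2 fold change of the 5 receptors was -0.32 with vehicle, -0.79 with rIL-12 and -0.28 between the groups with leukemia, where the medians of all features were 0.05, 0.02 and -0.08. Both comparisons with mice without leukemia use the same 3 control mice.

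**Figure D1:**
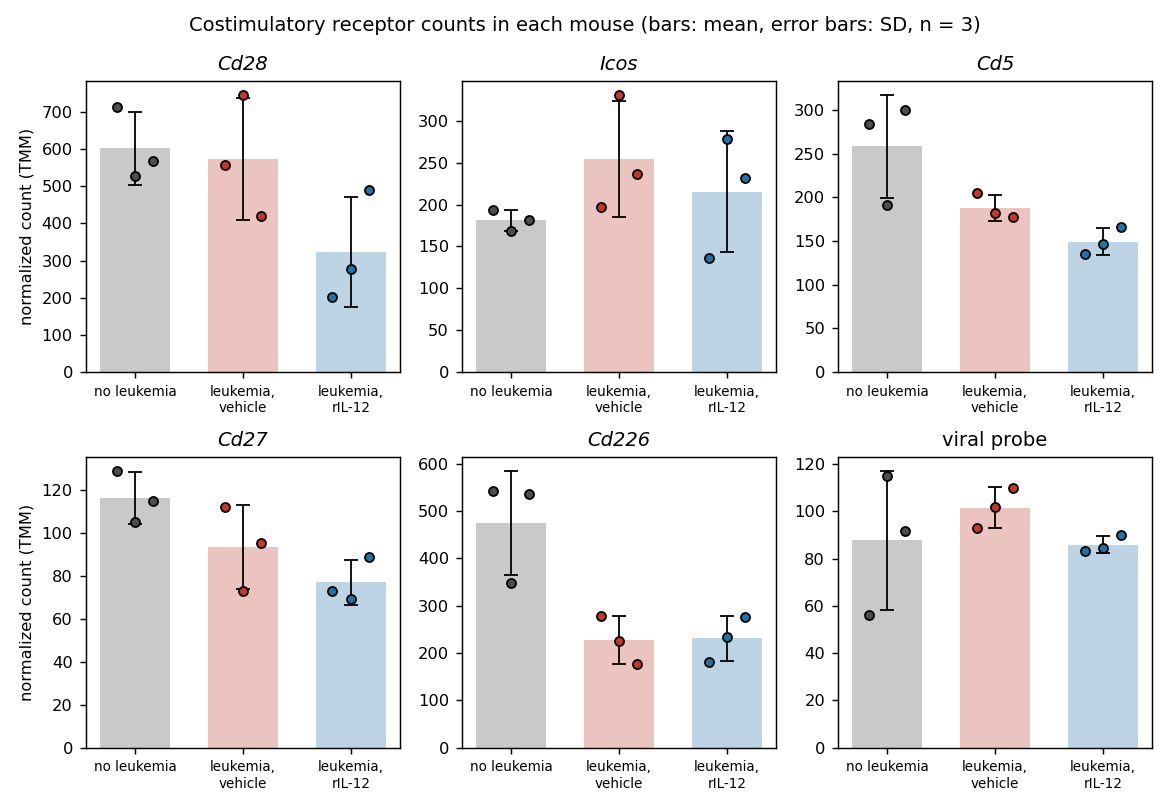
Normalized counts (vertical axis) of the 5 measured receptors and the viral background probe, with a point for each mouse, a bar for the mean and an error bar for the SD of 3 mice per group. Cd226 lay between 348 and 542 without leukemia, 177 and 278 with vehicle and 182 and 277 with rIL-12, Cd28 was lowest with rIL-12, and Cd27 lay at the height of the viral probe.

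Cd28 encodes the main costimulatory receptor of naive T-cells. Its normalized count was 714, 527 and 567 without leukemia, 557, 746 and 419 with vehicle, and 203, 277 and 489 with rIL-12. All 3 rIL-12 treated mice were below every mouse without leukemia, while the vehicle treated mice spread across the range of the mice without leukemia and beyond it at both ends. Mean values were 603 ± 98.6, 574 ± 164 and 323 ± 149 (SD, n = 3) in that order. Cd28 fell with rIL-12 against no leukemia, by 0.90 on the log2 scale (SE 0.29, a 1.87-fold decrease, edgeR adjusted p = 0.048), though with counts scaled to the CD3 chains, described below, the value turned to 0.54. With vehicle, the log2 fold change was -0.07 (95% interval -0.69 to 0.56, edgeR adjusted p = 0.957). Between the groups with leukemia, Cd28 was 1.78-fold lower with rIL-12 (log2 fold change -0.84, 95% interval -1.47 to -0.20), which missed the threshold with an edgeR adjusted p of 0.0668. The call against no leukemia was lost when any of the 3 mice without leukemia, vehicle treated mouse 1 or 3, or rIL-12 treated mouse 1 or 2 was left out, with log2 fold changes of -0.99 to -0.66, and over 25 alternatives the adjusted p ran from 0.00115 to 0.223. Without rIL-12 treated mouse 3, the highest of its group, Cd28 was called lower than with vehicle (-1.26).

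Icos encodes an inducible receptor of the same family, known for its part in T follicular helper and regulatory T-cells. The mice without leukemia had normalized counts of 193, 169 and 181, the vehicle treated mice 197, 331 and 236, and the rIL-12 treated mice 136, 278 and 232. Every vehicle treated mouse was above every mouse without leukemia, by a narrow gap at the nearest pair, and rIL-12 treated mouse 1 was the lowest of all. The group means were 181 ± 12.1, 254 ± 68.8 and 215 ± 72.4 (SD, n = 3). No difference passed the threshold. The log2 fold change was 0.49 with vehicle (95% interval -0.06 to 1.05, edgeR adjusted p = 0.408), 0.25 with rIL-12 (-0.31 to 0.81, adjusted p = 0.571) and -0.24 between the groups with leukemia (-0.80 to 0.31, adjusted p = 0.535). Icos was the 1 receptor of the 5 with a value above 0 in both comparisons with mice without leukemia. With the counts scaled to 11 housekeeping genes, its value with rIL-12 turned to -0.04. Icos, Cd28 and Ctla4 are neighbours in the mouse genome (RefSeq, assembly GRCm38.p6), with Ctla4 between the other two.

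Cd5 had normalized counts of 284, 191 and 300 without leukemia, 205, 182 and 177 with vehicle, and 135, 147 and 166 with rIL-12. The 3 rIL-12 treated mice were below all other mice, and mouse 2 without leukemia lay within the range of the vehicle treated mice. Mean values were 258 ± 58.7, 188 ± 14.8 and 149 ± 15.3 (SD, n = 3). Cd5 fell with rIL-12 against no leukemia, by 0.79 on the log2 scale (SE 0.19, a 1.73-fold decrease, edgeR adjusted p = 0.0127), and scaled to the CD3 chains the value turned to 0.77. With vehicle, the log2 fold change was -0.46 (95% interval -0.88 to -0.04), an interval below 0 whose adjusted p over all features was 0.285. Between the groups with leukemia it was -0.33 (-0.76 to 0.09, edgeR adjusted p = 0.257). The call was lost when control mouse 1 or 3 or rIL-12 treated mouse 2 was left out, with log2 fold changes of -0.78 to -0.62.

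Cd27 had normalized counts of 129, 105 and 115 without leukemia, 112, 72.9 and 95.2 with vehicle, and 72.8, 69.3 and 89.0 with rIL-12. The rIL-12 treated mice were all below the mice without leukemia, and the vehicle treated mice overlapped both. Mean values were 117 ± 12.2, 93.4 ± 19.6 and 77.0 ± 10.5 (SD, n = 3), against 87.8 ± 29.7, 102 ± 8.73 and 85.9 ± 3.62 for the viral probe. The log2 fold change with rIL-12 was -0.60 (95% interval -1.04 to -0.16) with an edgeR adjusted p of 0.0539, just outside the threshold, and 9 of 25 alternatives gave a call, 1 of them, scaling to the CD3 chains, in the other direction (0.92). With vehicle it was -0.32 (-0.76 to 0.12, adjusted p = 0.554), and between the groups with leukemia -0.28 (-0.73 to 0.17, adjusted p = 0.38). Since these counts were at the level of the viral probe, they do not settle whether Cd27 RNA differed.

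Cd226 encodes the activating receptor also known as DNAM-1. Its normalized count was 542, 348 and 535 without leukemia, 278, 226 and 177 with vehicle and 182, 234 and 277 with rIL-12. All 6 mice with leukemia were below all 3 mice without, and the 2 groups with leukemia covered nearly the same range. Mean values were 475 ± 110, 227 ± 50.2 and 231 ± 47.8 (SD, n = 3). Cd226 fell with vehicle by 1.06 on the log2 scale (SE 0.23, a 2.08-fold decrease, edgeR adjusted p = 0.0297) and with rIL-12 by 1.04 (SE 0.23, a 2.05-fold decrease, adjusted p = 0.00724), where scaling to the CD3 chains gave -0.21 and, with the sign turned, 0.49. Between the groups with leukemia, the log2 fold change was 0.02, and its 95% interval of -0.49 to 0.52 covers changes of either sign that stay under 1.5-fold. With the replicate number of the labels as a block, the value with vehicle was -1.04 with an edgeR adjusted p of 0.0524, so the call was lost. It was also lost when control mouse 1 or 3 or vehicle treated mouse 2 or 3 was left out, at log2 fold changes of -1.04 to -0.91, and the adjusted p over 25 alternatives ran from 0.000813 to 0.609. The call with rIL-12 was lost without mouse 1 of the mice without leukemia (-0.92), with the methods' t-test and with scaling to the CD3 chains, and was present under 22 of 25 alternatives.

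**Figure D2:**
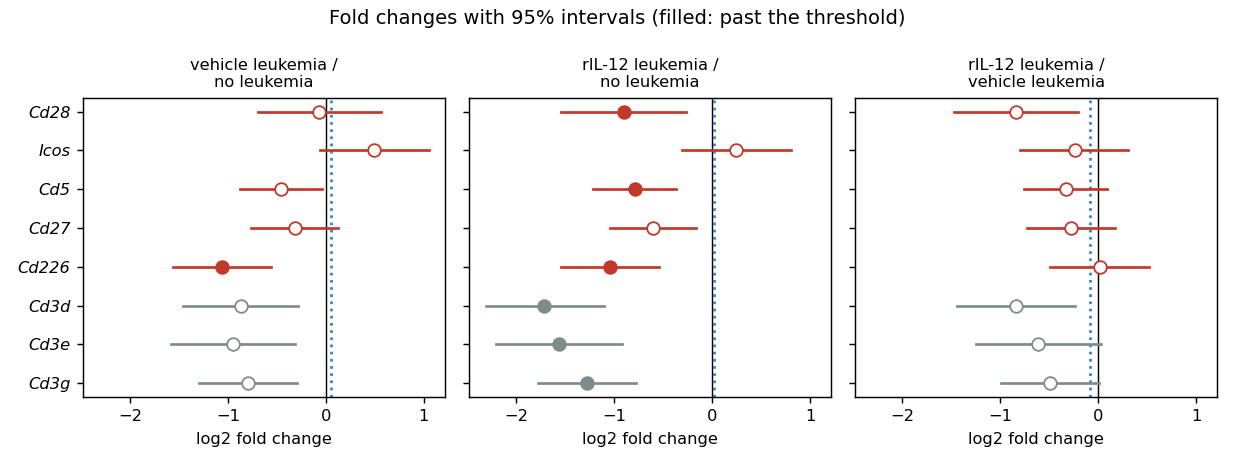
Log2 fold changes (horizontal axis) of the 5 receptors in red and the 3 CD3 chains in grey for the 3 comparisons, with 95% intervals, filled points for calls past the threshold, and a dotted line at the median of all features. Cd226 was called in both comparisons with mice without leukemia, Cd28 and Cd5 only in the rIL-12 one, and the CD3 chains lay at -0.79 or lower in both; scaled to those chains, the values with rIL-12 turned to 0.54 for Cd28, 0.77 for Cd5 and 0.49 for Cd226.

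T-cell markers were set beside the receptors. Of 8 measured T-cell markers, 2 were called lower with vehicle (Cd8a and Cd8b1) and 7 with rIL-12 (Cd3d, Cd3e, Cd3g, Cd8a, Cd8b1, Lck and Zap70), and 2 were lower with rIL-12 than with vehicle (Lck and Zap70). Their summed normalized counts were 5390 to 9360 without leukemia, 3050 to 4700 with vehicle and 1620 to 2990 with rIL-12. Their median log2 fold change was -0.83 with vehicle and -1.58 with rIL-12. With vehicle 6 of the 8 values were below 0, and those of Cd4 (0.83) and Zap70 (0.04) were above it without a call; with rIL-12 all 8 were below 0. The CD3 chains Cd3d, Cd3e and Cd3g, which carry the signal of the antigen receptor in all T-cells, had log2 fold changes of -0.87, -0.95 and -0.79 with vehicle (edgeR adjusted p of 0.121, 0.112 and 0.108) and -1.71, -1.56 and -1.28 with rIL-12 (adjusted p of 0.00103, 0.00293 and 0.00215). In bulk samples, fewer T-cells and less RNA per T-cell cannot be told apart. Of 6 measured markers of naive or memory T-cells, 4 were called lower with vehicle (Ccr7, Klf2, Lef1 and S1pr1) and 5 with rIL-12 (the same 4 and Il7r). Between the groups with leukemia 2 were called lower (Il7r and S1pr1). In each comparison of the rIL-12 group, 1 of the 6 was above 0 without a call. Their sums were 8950 to 13400 without leukemia, 5480 to 9640 with vehicle and 7270 to 8580 with rIL-12, so the groups with leukemia overlapped. Over all features, 1.40%, 8.66% and 5.22% were called lower. Regulatory T-cell markers summed to 710 to 769 without leukemia, 611 to 947 with vehicle and 358 to 738 with rIL-12. Among these, Foxp3 was called lower with rIL-12 in both comparisons (-1.45 and -1.36). The CD3 chains were at -1.71 to -1.28 in the first of these comparisons and at -0.84 to -0.49 in the second. Il10 was called higher in both groups with leukemia than without (1.91 with vehicle and 1.73 with rIL-12). The other regulatory markers were not called. The median of this list was 0.09 with vehicle, -0.04 with rIL-12 and -0.43 between the groups with leukemia.

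Markers of other cell types were set beside the receptors as well. Measured markers of B-cells or B-ALL (5) summed to 403 to 545 without leukemia, 500 to 746 with vehicle and 505 to 524 with rIL-12. Myeloid markers (6) summed to 2350 to 2490, 2680 to 3050 and 2600 to 3390, NK cell markers (7) to 2800 to 3290, 2310 to 3300 and 2700 to 4050, and mast cell or basophil markers (2) to 751 to 833, 1450 to 1750 and 1460 to 1880. No feature of the panel, the viral probe included, was at 0 in any mouse, so counts above 0 do not show that these cells were present. Klrk1 was called higher with rIL-12 in both of its comparisons, and Cpa3 and Ms4a2 were called higher in both groups with leukemia. The part of these cells in the receptor differences was not tested.

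The receptors were also set against the CD3 chains within each mouse, as a percentage of the geometric mean of the counts of Cd3d, Cd3e and Cd3g, which does not depend on scaling between mice. On this scale Icos was 15.1%, 23.8% and 17.0% without leukemia, 31.0%, 58.8% and 51.1% with vehicle, and 55.9%, 77.6% and 49.8% with rIL-12. All 6 mice with leukemia were above all 3 mice without. The log2 difference was 1.31 with vehicle and 1.72 with rIL-12. Cd28 was 61.1% ± 11.5, 104% ± 25.1 and 88.6% ± 14.7 in the same order of groups (SD, n = 3), log2 differences of 0.75 and 0.54 without overlap of the groups. Cd226 was 47.2% ± 4.31, 40.8% ± 2.69 and 66.6% ± 7.62, so that the rIL-12 treated mice, at 59.6% to 74.7%, were above both other groups, with log2 differences of 0.49 against no leukemia and 0.70 against vehicle. Cd5 went from 25.8% ± 3.16 to 34.4% ± 3.53 and 44.1% ± 10.3.

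These percentages move with the CD3 chains themselves. Relative to CD3, the median of all 785 features shifted by 0.86 with vehicle, 1.53 with rIL-12 and 0.60 between the groups with leukemia, and the groups did not overlap for 66.6%, 92.0% and 37.2% of features. The viral probe alone went from 9.76% ± 6.02 to 18.9% ± 4.69 and 25.7% ± 7.62. Measured from those medians, Icos lay above the panel in the comparisons with mice without leukemia (1.31 against 0.86, and 1.72 against 1.53), whereas Cd28, Cd5, Cd27 and Cd226 lay below it, with values of 0.75, 0.42, 0.52 and -0.21 with vehicle and 0.54, 0.76, 0.92 and 0.49 with rIL-12. Exact two-sided permutation tests over mice gave p = 0.1, the smallest value that 3 against 3 allow, at best, and at least 0.167 after adjustment over the 15 tests.

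**Figure D3:**
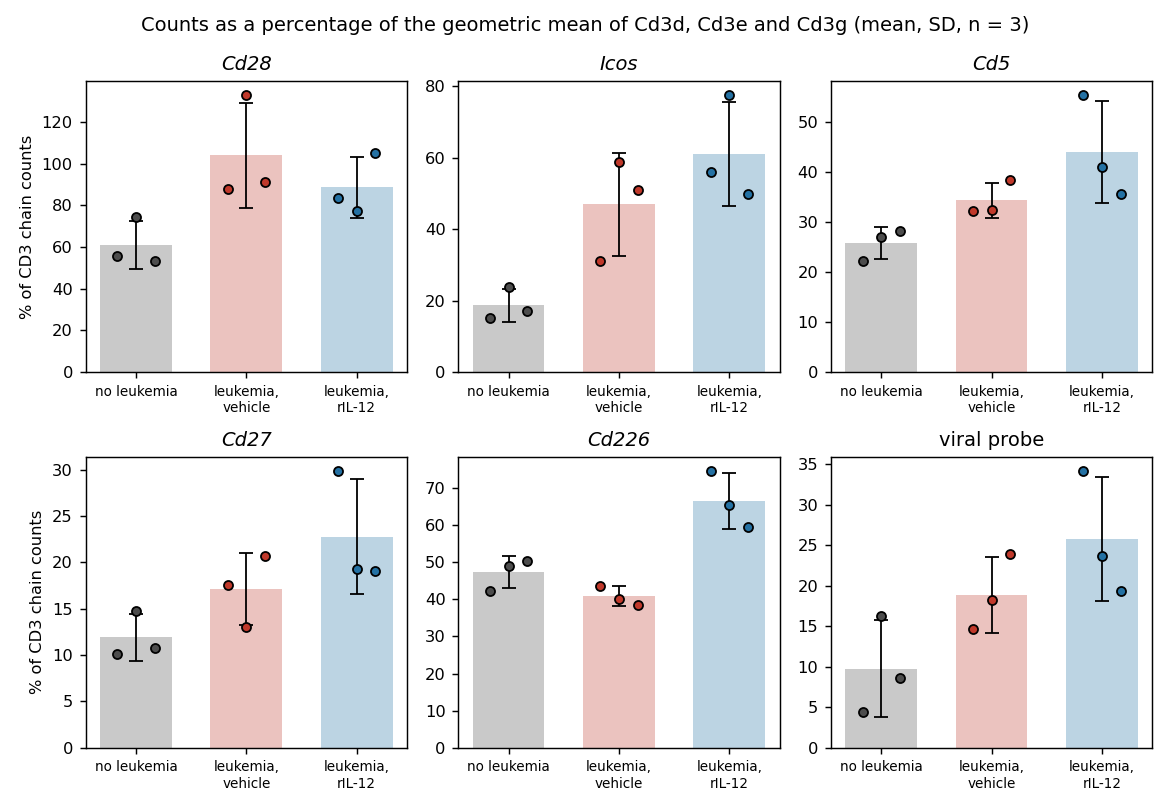
Counts of each receptor and of the viral probe as a percentage of the geometric mean of Cd3d, Cd3e and Cd3g (vertical axis), with a point for each mouse and mean ± SD of 3 mice. Icos was 18.6% without leukemia and 47.0% and 61.1% in the groups with leukemia, and the viral probe was 9.76%, 18.9% and 25.7% on the same scale.

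Ratios of receptors that bind the same ligands were compared within each mouse. The ratio of Cd226 to Tigit counts was 5.21, 1.90 and 4.58 without leukemia, 1.20, 0.410 and 0.419 with vehicle, and 1.12, 0.693 and 0.734 with rIL-12. All 6 mice with leukemia were below all 3 without, and the 2 groups with leukemia overlapped. The geometric mean ratio was 6.03-fold lower with vehicle (log2 difference -2.59) and 4.30-fold lower with rIL-12 (-2.10), each with an exact two-sided permutation p of 0.1, the smallest possible, and 0.2 adjusted over 6 tests. Tigit itself was called higher with vehicle (log2 fold change 1.57, edgeR adjusted p = 0.0331) and with rIL-12 (1.11, adjusted p = 0.0456). The ratio with rIL-12 was 1.40 times that with vehicle, within the spread of the mice (exact permutation p = 0.4).

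The ratio of Cd28 to Ctla4 counts was 16.0, 7.44 and 8.04 without leukemia, 7.46, 5.25 and 3.86 with vehicle, and 4.11, 3.10 and 4.73 with rIL-12. The rIL-12 treated mice were below all mice without leukemia, and vehicle treated mouse 1 overlapped with them. The geometric mean was 9.86 without leukemia, 5.33 with vehicle (log2 difference -0.89, exact permutation p = 0.2) and 3.92 with rIL-12 (-1.33, exact permutation p = 0.1), with adjusted values of 0.3 and 0.2. Between the groups with leukemia the log2 difference was -0.44 (exact permutation p = 0.3). Ctla4 counts of 42 to 154 were below the viral probe in 6 of 9 mice, so the size of this ratio depends on background. Ratios for any 2 features did not overlap between groups in 24.4% of pairs with vehicle, 37.6% with rIL-12 and 29.3% between the groups with leukemia.

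**Figure D4:**
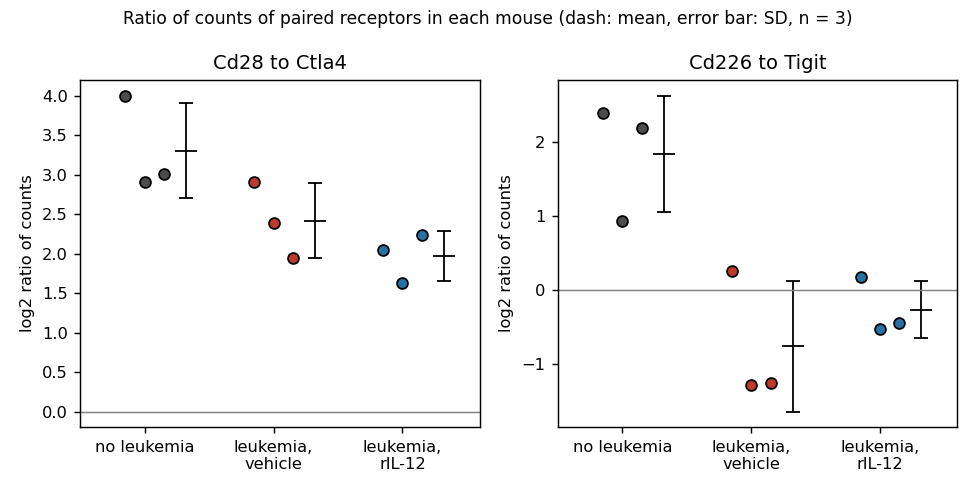
Log2 of the ratio of Cd28 to Ctla4 counts (left) and of Cd226 to Tigit counts (right) for each mouse, with a dash for the mean and an error bar for the SD of 3 mice. The ratio of Cd226 to Tigit counts was higher in all 3 mice without leukemia, at 1.90 or above, than in the 6 mice with leukemia, at 1.20 or below.

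Ratios among the 5 receptors themselves were computed after their values had been seen. Out of 10 pairs, there was no overlap for 7 with vehicle, 5 with rIL-12 and 1 between the groups with leukemia. Over all pairs of features, 24.4%, 37.6% and 29.3% did not overlap. The 10 pairs are built from the same 5 genes and so are not independent of each other. The ratio of Icos to Cd226 counts differed from that without leukemia by 1.52 on the log2 scale with vehicle and 1.22 with rIL-12. The ratio of Cd28 to Cd226 counts differed by 0.96 with vehicle and 0.05 with rIL-12, and it was the 1 ratio that separated the groups with leukemia, with a log2 difference of -0.92. Exact permutation p was 0.1 for each pair without overlap and at least 0.231 after adjustment over 30 tests.

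Across the 9 mice, log2 normalized counts of the receptors followed the CD3 chains to different degrees. Pearson's r with the geometric mean of the CD3 chains was 0.96 for Cd5, 0.90 for Cd226, 0.85 for Cd27, 0.83 for Cd28 and -0.03 for Icos. The genes with the most similar pattern, among 489 genes with a mean count of at least 100, were Zap70 (r = 0.98), Jund (0.96) and Hcst (0.96) for Cd28, and Cd3g (0.96), Foxo1 (0.95) and Cd3e (0.95) for Cd5. For Cd226 they were Klf2 (0.95), Trat1 (0.94) and Lef1 (0.93), and for Cd27, Sesn3 (0.95), Rasgrp1 (0.95) and Dgka (0.92). Icos was nearest to Il12rb1, a chain of the IL-12 receptor (0.86), Cd4, the coreceptor of helper T-cells (0.84), and Icam1, an adhesion molecule (0.80). Cd4 was the 1 T-cell marker of the 8 that was not called in any comparison, with log2 fold changes of 0.83 with vehicle and -0.01 with rIL-12 (edgeR adjusted p of 0.223 and 0.976). These coefficients describe 9 mice in 3 groups, which share the difference between the groups and the scaling.

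Of 12 other measured costimulatory receptors, 1 was called higher with vehicle, and 1 higher and 3 lower with rIL-12. The median log2 fold change of these 12 was -0.07 with vehicle and -0.04 with rIL-12. Over all features, 1.27% were called higher with vehicle and 8.92% with rIL-12. Tnfrsf9 (4-1BB, a TNF receptor of activated T-cells) rose with vehicle from 67.9 ± 4.45 to 154 ± 64.0 normalized counts (log2 fold change 1.15, edgeR adjusted p = 0.0414) and was at 73.5 ± 13.8 with rIL-12, a decrease against vehicle (-1.04, adjusted p = 0.0236). Klrk1 (NKG2D, an activating receptor of NK cells and CD8 T-cells) rose with rIL-12 against both other groups (1.43 and 1.37). Cd6, a close relative of Cd5, fell by 1.47 on the log2 scale with rIL-12, Crtam by 1.17 and Slamf6 by 1.09, but scaled to the CD3 chains their values were 0.00, 0.35 and 0.48. Raw counts of Crtam (18 to 57) were below the viral probe in 8 of 9 mice, so its value rests on low counts.

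Of 7 inhibitory receptors, 3 were called higher with vehicle, namely Lag3 (log2 fold change 2.07), Pdcd1, which encodes PD-1 (1.58), and Tigit (1.57). The median of the 7 was 0.80 with vehicle and 0.37 with rIL-12. With rIL-12, Tigit was higher (1.11), with overlapping groups and a call lost under 10 of 25 alternatives, among them housekeeping and total count scaling. Cd96, another receptor for CD155, was lower with rIL-12 (-1.88, and -0.37 without a call when scaled to the CD3 chains). Against vehicle, rIL-12 treated mice had lower Pdcd1 (-1.13, with overlapping groups) and Cd96 (-1.07), which scaled to the CD3 chains were -0.59 and -0.39 without a call. Between these 2 groups 5.22% of all features were called lower and 8.54% higher. Of 10 ligands, none was called with vehicle by edgeR (1 had an unadjusted p under 0.05, and DESeq2 called 0), whereas with rIL-12 Cd80, a ligand of CD28 (0.78), and Icosl, the ligand of ICOS (0.67), were higher and Cd72 was lower (-1.12, and -1.06 against vehicle). The Icosl call (edgeR adjusted p = 0.043) was lost under 15 of 25 alternatives and that of Cd80 under 9 of 24. The median of the 10 ligands was 0.13 with vehicle and -0.07 with rIL-12. Scaled to the CD3 chains, Cd72 with rIL-12 turned to 0.38.

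Signaling genes below the receptors gave 1 call of 30 with vehicle, Nfkb2 (0.63), a subunit of NF-kappaB, a call lost with the replicate block (0.63, edgeR adjusted p = 0.0616). With rIL-12, 8 of 30 were called lower, among them Grap2, an adaptor that binds CD28 (-2.15), and Lck, the kinase of the antigen receptor (-1.60), which scaled to the CD3 chains were -0.63 and -0.08 without a call. Against vehicle, 7 of 30 were called lower with rIL-12, among them Zap70 (-1.19) and Grap2 (-1.13), which on that scale were -0.66 and -0.43, again without a call. The median of the 30 was -0.13 with vehicle and -0.18 with rIL-12. Of 10 targets of costimulation, Il10 was higher with vehicle (1.91), and with rIL-12 Il21 (1.81), Il10 (1.73) and Ifng (1.39) were higher and Bcl2, a survival factor, was lower (-1.80, and -0.89 against vehicle). Scaled to the CD3 chains, Bcl2 was -0.28 and -0.22 without a call. The median of the 10 targets was 0.08 with vehicle and 0.14 with rIL-12. Of the 31 calls that the naming rule selected from these lists, 9 held when each mouse was left out in turn, all of them with rIL-12 against no leukemia, and 22 were lost without at least 1 mouse. Scaling to the CD3 chains ended all 17 of these calls that were lower and none of the 14 that were higher, while housekeeping scaling ended 10 of the 14 and none of the 17. Raw counts were below the viral probe of the same mouse in 8 of 9 mice for Il21 (14 to 162), 7 for Cd80 (47 to 131) and Il10 (18 to 123), 5 for Tnfrsf9 (65 to 161) and Pdcd1 (52 to 256), 4 for Lag3 (38 to 354), and 2 for Cd96 (65 to 308) and Slamf6 (74 to 222). Those of Tigit (98 to 597), Icosl (92 to 382), Ifng (88 to 606) and Cd6 (108 to 482) were above it in every mouse, though their lowest counts lie within its range of 53 to 114.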

How the data were processed

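The authors deposited whole-number barcode counts for 785 features in each of 9 mice, before any scaling; the methods mention nSolver normalization, which was not applied to these counts and whose settings are not given in the sources used here. All columns were used. Total counts were 257613 to 711748 per mouse, and the median was 478670 (no leukemia), 486628 (vehicle) and 625318 (rIL-12). A RefSeq table (assembly GRCm38.p6) gave a symbol to 751 of 785 features by transcript.

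Counts were scaled with TMM and tested with edgeR 4.0.16 (quasi-likelihood test, R 4.3.3) in a model of all features and mice with a term for the 3 groups, no block and a prior count of 1. A gene was called where the p adjusted by Benjamini-Hochberg was under 0.05 and the change at least 1.5-fold. The fit was tested on simulated data with changes larger than those of the receptors, so this does not bear on changes of their size. Intervals are at 95%. Ratios within mice were compared with exact two-sided permutation tests in scipy 1.17.1, for which 3 against 3 give no p under 0.1. Nothing in the sources says that mice were pooled, so each sample was taken as 1 mouse. The receptors, marker and pathway lists were chosen with earlier results of these data known. The rule named every measured receptor, Ctla4, Tigit, the CD3 chains, the 3 genes most similar to each receptor and, per pathway list and comparison, up to 3 called genes in each direction with the largest change. Marker genes outside this rule, and the pairs among receptors, were chosen after their values were seen. Some results that the rule selected are not reported here.

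Alternatives were DESeq2 size factors, scaling by 11 housekeeping genes, by the median, by the total count or by the CD3 chains, filters at a mean count of 20 or at the viral probe, prior counts of 0.1 and 10, a model of the 2 groups compared, a replicate block, robust variance, DESeq2 1.42.0, the methods' t-test, no fold threshold, a 2-fold threshold, and leaving out each mouse. The prior counts left the adjusted p as in the main fit, and dropping the fold threshold cannot end a call. Counts of alternatives include these settings. The methods' t-test was Student's t-test, which the study names for 2 groups, run here on log2 TMM counts and not on nSolver values. For more than 2 groups the study names ANOVA with Tukey's test, which was not run. Replicate numbers come from the sample titles. Deviations of mice with the same number correlated at 0.26, 0.113 and 0.125 between mice without leukemia and vehicle treated mice. There, mice with different numbers gave -0.257 to 0.13. Same-number coefficients were 0.007, -0.079 and -0.187 between mice without leukemia and rIL-12 treated mice. Between the groups with leukemia they were 0.335, 0.126 and 0.018, and different numbers gave -0.398 to 0.23. These coefficients do not settle whether mice were paired, and the main fit had no block.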

Additional observations from a re-analysis of the deposited data

How the results depend on the processing

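The number of receptors called with vehicle against no leukemia was 1, and became 0 with housekeeping scaling, the replicate block and the methods' t-test. In each of those settings, 1 receptor had both an unadjusted p under 0.05 and a change of at least 1.5-fold. The number was 0 to 1 when a mouse was left out. With scaling to the CD3 chains the 1 call was Icos, higher, in place of Cd226. Against no leukemia, rIL-12 gave 3 calls, 0 with the methods' t-test (3 had an unadjusted p under 0.05), 1 with the 2-fold threshold and 0 to 4 when a mouse was left out. It gave 2 with the replicate block and 2 with scaling to the CD3 chains, which were Icos and Cd27, both higher. Between the groups with leukemia the count of 0 became 3 with housekeeping scaling (Cd28 at -1.19, Cd5 at -0.72 and Cd27 at -0.66), 1 with total count scaling, the filter at the viral probe and DESeq2, and 0 to 1 when a mouse was left out. The replicate block ended the receptor calls of Cd226 with vehicle (-1.04) and Cd28 with rIL-12 (-0.94) and changed no other receptor call. Of the other named genes it ended those of Nfkb2 with vehicle (0.63), Icosl with rIL-12 (0.65), and Zap70 (-1.28) and Grap2 (-1.07) between the groups with leukemia. Scaling to the CD3 chains turned the sign, with vehicle, of Cd28 (0.77), Cd5 (0.41) and Cd27 (0.51), with rIL-12 of Cd28 (0.54), Cd5 (0.77), Cd27 (0.92) and Cd226 (0.49), and between the groups with leukemia of Icos (0.38), Cd5 (0.36) and Cd27 (0.41), while the median of all features moved to 0.86, 1.53 and 0.60. Housekeeping scaling, under which that median was 0.16, -0.27 and -0.49, turned Cd28 with vehicle (0.04) and Icos with rIL-12 (-0.04). Cd226 between the groups with leukemia turned to -0.35 with housekeeping scaling, -0.16 with total count scaling and -0.06 with the filter at the viral probe, and ran from -0.13 to 0.19 when a mouse was left out. Cd28 with vehicle ran from -0.28 to 0.11 and Icos between the groups with leukemia from -0.47 to 0.0009 when a mouse was left out. The signs of the 2 pair ratios were the same after adding 1 to the counts and when a mouse was left out. Scaling between mice cannot change these ratios, no block was fitted to them and no background was subtracted. Over all features, calls numbered 21, 138 and 108, and leaving out a mouse gave 0 to 42, 66 to 194 and 0 to 199. Housekeeping scaling gave 3, 118 and 229, CD3 scaling 156, 712 and 189, the model of 2 groups 63, 114 and 27, the 2-fold threshold 18, 72 and 49, DESeq2 50, 150 and 136, and the methods' t-test 0, 0 and 0 (56, 109 and 76 before adjustment). Low counts limit Cd27, which lay at the level of the viral probe. The cause of these changes was not tested.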
